A study of Homo sapiens with 9 samples.

Results

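The miR-548 family is a large group of human microRNAs, small RNAs that repress messenger RNAs by base pairing. Its members here were all rows of the deposited count table whose mature name begins with hsa-miR-548, whether or not a count was seen. That rule gave 102 of the 2883 rows, which carry 81 of the 2654 mature names and come from 73 of the 1917 precursors. The small RNA libraries came from Jurkat cells of clone E6-1, T lymphoblasts of human origin kept as a cell line and much used to study signalling through the T cell receptor. The libraries form 3 groups of 3 biological replicates: unactivated control cells (0 h), and cells collected 5 h or 12 h after activation with plate-bound antibody to CD3 (coated at 10 µg/mL) plus soluble antibody to CD28 (5 µg/mL). All libraries come from 1 transformed clonal line, and no unactivated cells were kept for 5 h or 12 h, so activation and time in culture cannot be told apart. The comparison with 0 h asks which miR-548 members differ in level during early activation.

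MicroRNAs of this family are found in primates, and many of their hairpins derive from Made1, a short transposable element made of a pair of inverted repeats. A transcript that reads through such an element folds back on itself, and Drosha and Dicer can then cut it as they cut other microRNA hairpins. Each hairpin has a 5p and a 3p arm, either of which may be loaded into Argonaute, and the seed (bases 2 to 8 of the mature strand) sets most target pairing. Because the copies resemble each other, a short read can match several loci, so the level assigned to 1 copy depends on how such reads were counted.

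RefSeq (build GRCh38.p14) gave a mature sequence for 55 of the 81 names, with 53 distinct sequences and 29 distinct seeds. The following 4 are the most abundant members with a sequence, printed 5′ to 3′ with the seed in capitals. They start alike, and miR-548b-5p and miR-548j-5p have the same seed.
miR-548k: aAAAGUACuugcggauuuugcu
miR-548b-5p: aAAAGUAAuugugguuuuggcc
miR-548l: aAAAGUAUuugcggguuuuguc
miR-548j-5p: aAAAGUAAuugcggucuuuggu
The next 5 are shown because their levels are discussed by time point. Only miR-548w has the seed of miR-548b-5p and miR-548j-5p, and miR-548aq-3p comes from the 3p arm.
miR-548w: aAAAGUAAcugcgguuuuugccu
miR-548q: gCUGGUGCaaaaguaauggcgg
miR-548ai: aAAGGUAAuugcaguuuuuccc
miR-548n: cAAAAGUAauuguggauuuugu
miR-548aq-3p: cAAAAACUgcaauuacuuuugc
The last 3 bear on arm use: miR-548b-3p is the less abundant partner of miR-548b-5p, and miR-548t-5p and miR-548e-5p are 5p strands whose 3p partner had more counts.
miR-548b-3p: cAAGAACCucaguugcuuuugu
miR-548t-5p: cAAAAGUGaucgugguuuuug
miR-548e-5p: cAAAAGCAaucgcgguuuuugc

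Library totals ranged from 6631839 (12 h replicate 3) to 16207031 counts (5 h replicate 3), and 0 h replicate 3, with 7083813, was the second shallowest. Levels are in CPM (counts per 1000000 of the library total), scaled by TMM factors, with the highest row taken where a name has several precursors. Of the blood cell markers, miR-181a-5p (29559 CPM), miR-142-3p (9202 CPM) and miR-142-5p (1470 CPM) were high in these libraries, and miR-150-5p was lower at 259 CPM. Of 12 markers of other cell types, 7, 7 and 6 were above 0 at 0 h, 5 h and 12 h, with summed levels of 231.1 to 317.1, 271.7 to 365.1 and 294.2 to 324.2 CPM. miR-223-3p (mean 134 CPM), miR-200c-3p (103), miR-203a-3p (30.7), miR-126-3p (13.4) and miR-451a (5.69) were above 0 in all 9 libraries, and miR-122-5p (10.8) in 8. miR-302a-3p and miR-144-3p were above 0 in 1 library each, and miR-124-3p, miR-1-3p, miR-133a-3p and miR-372-3p were at 0. The part of these markers in the results was not tested.

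Counts above 0 were present for 53 of the 81 miR-548 names (65.4%), and 20 names (24.7%) were above 0 in all 9 libraries. Among the 2573 other names, 1045 (40.6%) were detected and 13.9% were above 0 in every library. The remaining 28 miR-548 names had no count anywhere. By counting error alone, that allows a mean level of up to 0.0288 CPM for each (3 counts over the 9 libraries). In a single library 3 counts correspond to between 0.176 and 0.471 CPM, so members below that level could not be followed from library to library. At 0 h, 46 names were detected in at least 1 library, against 49 at 5 h and 49 at 12 h. Single libraries held 39, 35 and 29 names at 0 h, 37, 40 and 42 at 5 h, and 42, 33 and 41 at 12 h, ranges that overlap. The chromosome 19 cluster, another large primate group of microRNAs, had 19 of 77 names detected and none above 0 in all 9 libraries. Its summed level was 5.07 ± 3.50, 3.68 ± 1.91 and 5.37 ± 3.06 CPM (SD, n = 3) at 0 h, 5 h and 12 h.

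Detection differed with the arm written in the name. Of the 28 miR-548 names ending in -5p, 23 (82.1%) were detected, against 10 of 28 (35.7%) ending in -3p and 20 of 25 (80.0%) with no suffix. For all other names the shares were 52.6% of 880 for 5p, 40.6% of 890 for 3p and 27.5% of 803 with no suffix. Of the names with no suffix, 18 could be placed within their annotated hairpin, 13 on the 5p and 5 on the 3p side.

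No member was abundant. miR-548k, the highest, averaged 16.1 CPM over the 9 libraries and ranked 214 among all mature names. Only 5 members reached 10 CPM, 26 reached 1 CPM, and 27 lay above 0 but below 1 CPM. The top 5 (miR-548k, miR-548b-5p, miR-548l, miR-548j-5p and miR-548d-5p) held 36.2% of the counts of the family, and the 20 names above 0 in all libraries held 87.7%.

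miR-548k read 19.5, 12.7 and 16.5 CPM at 0 h, 11.6, 23.3 and 14.7 at 5 h, and 16.3, 16.0 and 14.1 at 12 h. The 3 groups overlapped, with both the lowest and the highest library at 5 h. miR-548b-5p read 12.7, 20.0 and 14.9 CPM at 0 h, 17.9, 19.2 and 8.39 at 5 h, and 16.5, 8.77 and 12.9 at 12 h. It too overlapped between all groups. miR-548l read 13.8, 13.2 and 16.5 CPM at 0 h, 14.1, 7.70 and 9.68 at 5 h, and 15.1, 15.7 and 18.4 at 12 h. Its 12 h libraries all lay above its 5 h libraries, while 0 h overlapped both. miR-548j-5p read 9.77, 10.6 and 13.3 CPM at 0 h, 11.9, 12.5 and 13.02 at 5 h, and 14.5, 20.0 and 13.5 at 12 h. Every 12 h library was above every earlier one, by a narrow margin over the third 0 h library. This order depends on the TMM scaling. With RLE factors, another scaling, 12 h replicate 3 falls below 0 h replicate 3. With library totals only, it falls below 5 h replicate 3.

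Next in order, miR-548d-5p averaged 11.3 CPM over all libraries, miR-548c-5p and miR-548o-5p 9.90 CPM each, miR-548am-5p 8.81, miR-548ay-5p 8.70, miR-548ae-5p 8.54, miR-548au-5p 8.28 and miR-548aa 8.01. Neighbours in this order did not differ beyond their spread between libraries: miR-548ae-5p alone ranged from 2.98 to 14.1 CPM. The other members seen in all 9 libraries were miR-548a-5p (mean 7.93 CPM), miR-548t-3p (7.87), miR-548h-3p and miR-548z (5.13 each), miR-548q (3.65), miR-548ai (3.22), miR-548ad-5p (3.14) and miR-548an (1.43).

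**Figure D1:**
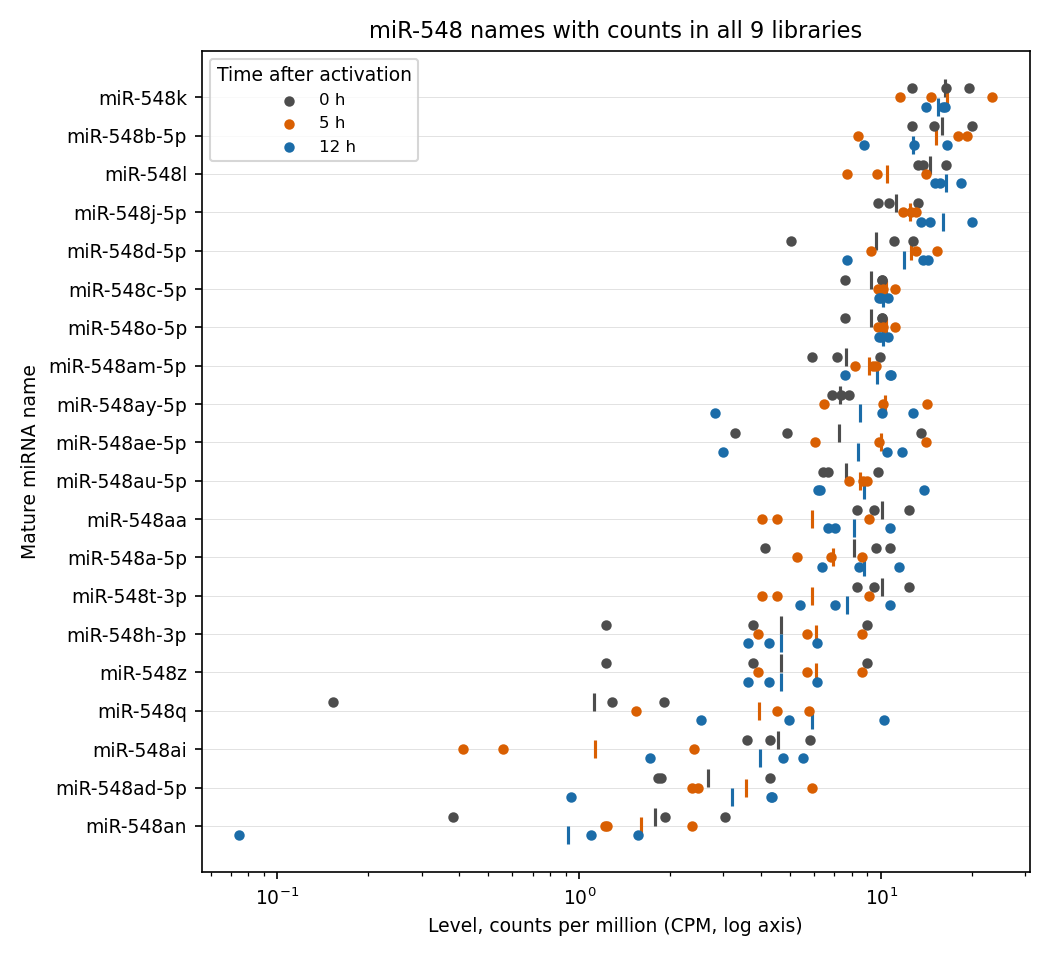
Level in CPM (log axis) of the 20 miR-548 names with counts in all 9 libraries, with 1 point per library coloured by time after activation and a bar at each group mean. Points of the 3 groups interleave for most names, and miR-548k, at the top, averaged 16.1 CPM.

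Hairpins of 29 members have both arms named, and 26 of them had counts. In 15 of these only the 5p arm was seen and in 2 only the 3p arm (mir-548aq with 58 counts and mir-548bb with 16), while 9 had both. The 15 are not all separate cases. They include mir-548g, mir-548x and mir-548aj-2, whose 5p names share counts. They also include mir-548c, whose 1026 5p counts equal those of mir-548o-2. mir-548j is the clearest case of 1 arm: 1366 counts on the 5p strand against 0 on the 3p strand, which bounds the 3p share at 0.270% (exact binomial 95% interval). Read counts are not independent molecules, so intervals cover counting error only.

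With at least 10 counts on each arm there were 7 precursors. The 5p arm led in 4 of them, with 3p shares of 9.78% for mir-548b (1486 and 161 counts), 12.2% for mir-548d-1, 12.8% for mir-548d-2 and 6.04% for mir-548o-2. mir-548d-1 and mir-548d-2 carry the same mature names, with 170 counts of miR-548d-3p listed for each, and are not separate cases. The 3p arm led in 3, with shares of 90.8% for mir-548h-4 (51 and 502 counts), 82.8% for mir-548t (160 and 769) and 55.5% for mir-548e (61 and 76). The 51 counts of miR-548h-5p are listed for each of 5 precursors, and the 502 of miR-548h-3p also for miR-548z. For mir-548o-2, the 5p counts (1026) equal those of miR-548c-5p, and the 66 3p counts are listed for 2 precursors. The shares of mir-548h-4 and mir-548o-2 are therefore not those of single hairpins. For mir-548t the pooled 3p share was 96.6% at 0 h, 77.7% at 5 h and 71.7% at 12 h, but single libraries ranged from 52.2% to 100%, and the 3p counts are largely shared with miR-548aa. mir-548e went from 89.3% through 62.2% to 0, on the 61 and 76 counts above. These shares describe the libraries and were not tested.

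**Figure D2:**
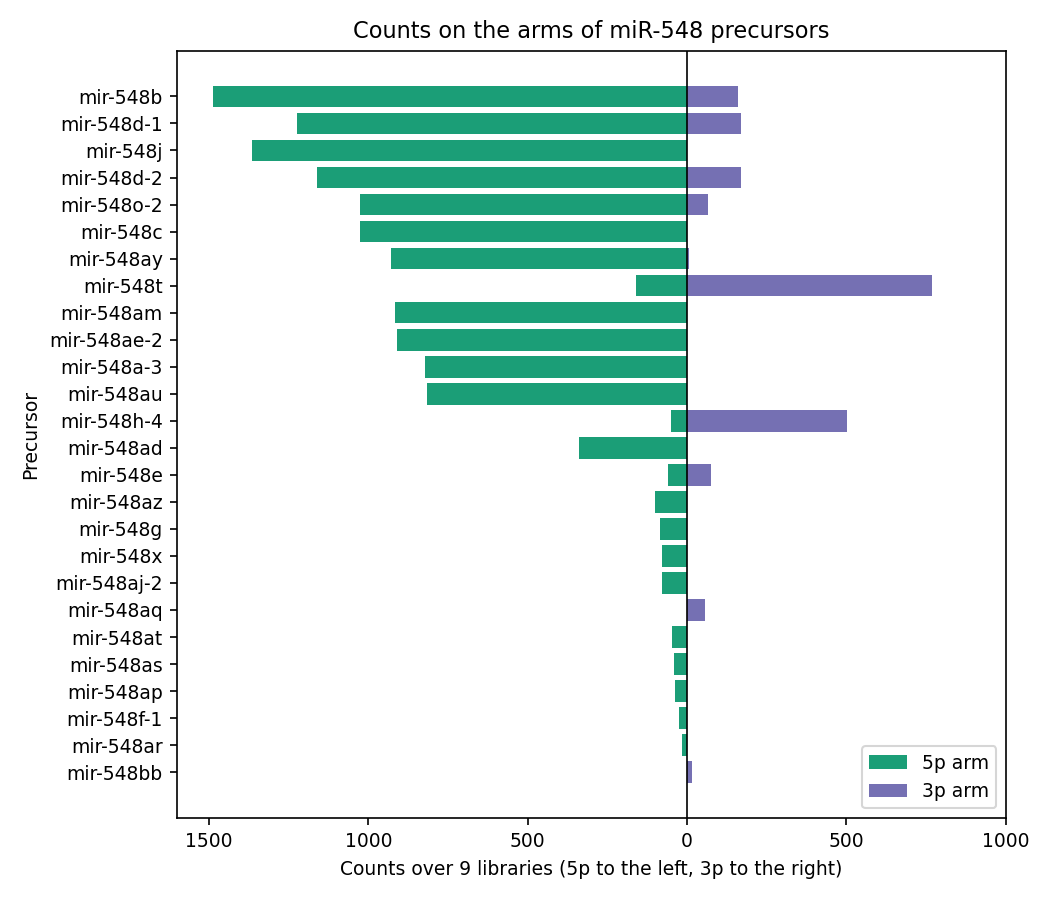
Counts over the 9 libraries on the 5p arm (bars to the left) and the 3p arm (bars to the right) of the 26 precursors with both arms named and counts on either, ordered by their sum. Most bars lie to the left, as for mir-548j (1366 and 0), while mir-548t (160 and 769) and mir-548h-4 (51 and 502) extend mainly to the right.

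Several members had equal or nearly equal counts. miR-548c-5p and miR-548o-5p had the same count in all 9 libraries (1026 each), as did miR-548h-3p and miR-548z (502 each). miR-548aa and miR-548t-3p agreed in 8 of 9 libraries (786 and 769). miR-548aj-5p and miR-548x-5p (77 each) agreed in all 9 and miR-548g-5p (84) matched them in 8. These 3 have 1 identical mature sequence, shown here for that reason, although 5 h replicate 1 lists 16 counts for miR-548g-5p and 9 for each of the others.
miR-548g-5p, miR-548x-5p and miR-548aj-5p: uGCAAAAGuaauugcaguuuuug
Together 4 such sets cover 9 names, which leaves 48 detected names when each set is taken once. A set needed equal counts in at least 7 libraries, so names with merely close counts stay separate among the 48. For example, miR-548ay-5p and miR-548ae-5p had 152 and 151 counts in 5 h replicate 1 and 119 and 124 in 12 h replicate 2. In 0 h replicate 1 they differed, with 114 and 51. Outside the family, miR-570-5p has the sequence of miR-548ai and the same count in every library (315), so what is given for miR-548ai holds equally for miR-570-5p. Some hairpins also lie on opposite strands of 1 interval: mir-548c and mir-548z at chr12:64622509-64622605 and mir-548aa-2 and mir-548d-2 at chr17:67471489-67471585 (GENCODE 29, GRCh38). Whether reads were assigned by strand is not given in the sources used here.

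Seeds were known only for the 55 names with a sequence. Names without one, among them miR-548c-5p (1026 counts) and miR-548am-5p (916), are not in the seed counts given here. The most common seed of the 55, AAAGUAA, occurs in 11 names, of which 9 were detected with 3422 counts in all. Of these, miR-548b-5p, miR-548j-5p and miR-548w had the most. Seed AAAAACU, carried by 7 names of the 3p arm, had counts only for miR-548aq-3p (58). GCAAAAG was seen in all 4 of its names (262 counts) and AAGGUAA in 2 of 3 (477 counts). Among the names with a sequence, some lay within a longer member. miR-548ap-5p (38 counts) is the first 19 bases of miR-548j-5p (1366), and miR-548av-5p (0) the first 18 of miR-548k (1676). miR-548av-3p (0) lies within miR-548o-3p (66) and miR-548ah-3p (0). Names without a sequence could not be compared. Names outside the family with a member's seed had few counts apart from miR-570-5p: miR-8054 had 8, in 2 libraries, and miR-1323 had 23, in 3. The median GC content of the 55 sequences was 33.3%, against 52.2% for 2310 other names. Within the family it was 36.4% for the 34 detected and 31.8% for the 21 at 0.

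GENCODE placed 72 of the 73 precursors, on 22 chromosomes. Hosts were sought among protein-coding and long non-coding RNA genes on the same strand, and other gene types, such as pseudogenes, were not searched. Introns of protein-coding genes held 36 (50.0%), exons held none, 4 lay in long non-coding RNA genes and 32 (44.4%) in neither. The share in protein-coding introns was 49.1% of the 55 loci with counts and 52.9% of the 17 without. Names with several precursors can repeat their counts at each, as miR-548i does with 30 at each of 4, so counts are not resolved to single loci. miR-548k comes from chr11:70283955-70284070 (+) in an intron of PPFIA1, miR-548l from chr11:94466495-94466580 (-) in MRE11, which encodes a DNA break repair nuclease, and miR-548j from chr22:26555212-26555323 (-) in TPST2, a protein tyrosine sulfotransferase. miR-548b comes from chr6:119069047-119069143 (-) in FAM184A. By contrast mir-548q, at chr10:12725254-12725353 (-), and mir-548ai, at chr6:99124609-99124696 (+), have no protein-coding or long non-coding host gene on their strand.

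Activation was then tested across all 701 rows with enough counts, of which 41 were miR-548 rows (37 names); 16 detected names were too low to test. At 5 h against 0 h edgeR's quasi-likelihood test called 0 of the 41 at an adjusted p under 0.05, with 1.57% of all tested rows called. At 12 h against 0 h it called 0, against 1.43%, and at 12 h against 5 h 0, against 0.571%. A joint test for any difference among the time points also called 0, against 1.71%. Without adjustment, p was under 0.05 for 1, 2, 1 and 0 member rows in these 4 tests, where 5.99%, 7.28%, 6.13% and 5.28% of all rows reached it. DESeq2 called 0 member rows as well, with 3, 3, 4 and 0 unadjusted, where 6.99%, 8.56%, 7.28% and 6.42% of all rows reached an unadjusted p under 0.05. Limma-voom also called 0, with 0, 1, 0 and 0 unadjusted, against 8.27%, 8.27%, 5.85% and 7.28% of all rows. The lowest adjusted p of a member in edgeR was 0.695 at 5 h, 0.661 at 12 h and 0.720 between them.

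Those tests had limited precision for this family. The median standard error of a member's log2 change was 0.94, and the 22 rows above 0 in every library had errors from 0.35 to 1.5. Their log2 changes ran from -1.98 to 1.78 at 5 h and from -0.97 to 2.35 at 12 h, both against 0 h. The median log2 change of the 41 rows was 0.16 at 5 h, 0.20 at 12 h and 0.04 between 12 h and 5 h. For all rows it was 0.03, 0.01 and -0.03. In the same order, 27, 27 and 22 member rows were higher and 14, 14 and 19 lower. Of all 701 rows, 373, 364 and 334 were higher and 328, 337 and 366 lower. Several of the 41 rows repeat the same counts, as miR-548c-5p and miR-548o-5p do, so they are not independent. Both comparisons with 0 h use the same control libraries.

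miR-548q read 1.29, 1.91 and 0.152 CPM at 0 h, 5.79, 1.54 and 4.52 at 5 h, and 4.93, 2.53 and 10.2 at 12 h. All 12 h libraries lay above all 0 h libraries, and 5 h overlapped both. Its log2 change was 2.35 ± 0.94 (SE, n = 3) at 12 h, which passed 0.05 only before adjustment (edgeR adjusted p = 0.661). Its extremes fell in the 2 shallowest libraries, and without them the log2 change was 1.21.

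miR-548ai, and with it miR-570-5p, read 3.60, 4.28 and 5.79 CPM at 0 h, 0.560, 0.411 and 2.41 at 5 h, and 1.72, 4.72 and 5.49 at 12 h. All 5 h libraries lay below all 0 h libraries, and the 12 h libraries spanned most of the range. The log2 change at 5 h was -1.98 ± 0.94 (SE, n = 3) and passed 0.05 only before adjustment (edgeR adjusted p = 0.695).

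miR-548aq-3p had no count in the 3 libraries at 0 h, then 0, 0.616 and 1.06 CPM at 5 h and 0.747, 0.844 and 2.20 at 12 h. Its 12 h mean of 1.26 CPM was 14.8-fold the 0.0852 CPM that 3 counts over the 0 h libraries represent, and its 5 h mean 6.54-fold. Such a floor covers counting error and not the spread between replicates, so these ratios are not lower bounds. The 12 h difference did not pass after adjustment (edgeR adjusted p = 0.661). miR-548n read 0, 0.764 and 1.83 CPM at 0 h, 2.89, 1.23 and 0 at 5 h, and had no count at 12 h. Its 5 h mean was 14.5-fold the 12 h floor of 0.0949 CPM, with the same limit, though 1 of the 5 h libraries was also at 0 (edgeR adjusted p = 0.720).

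**Figure D3:**
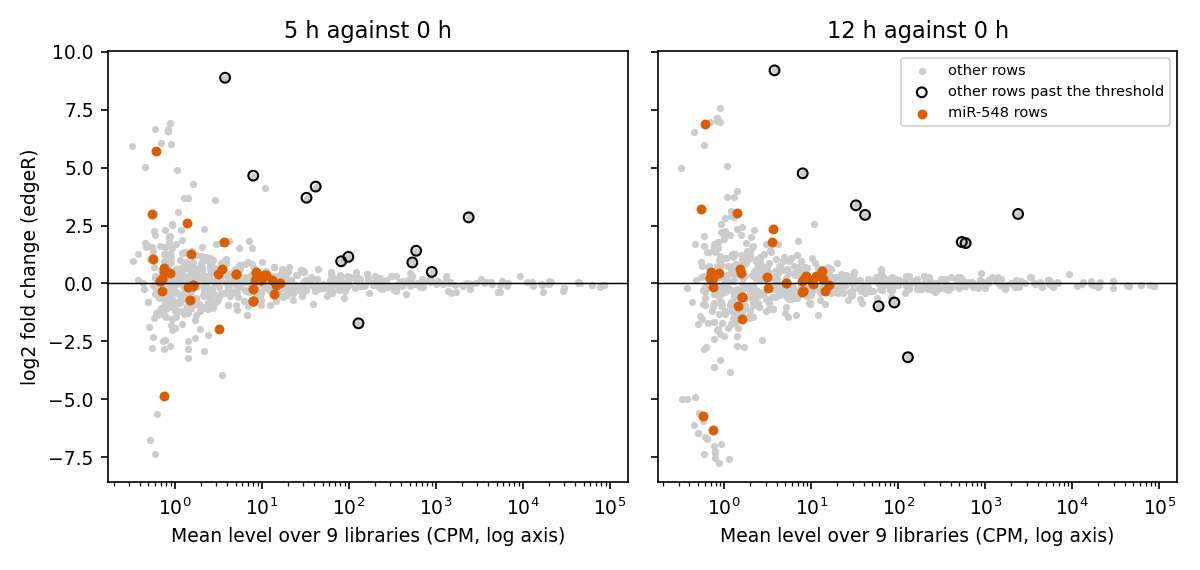
Log2 fold change from edgeR against the mean level in CPM (log axis) at 5 h and 12 h against 0 h, with 1 point for each of the 701 tested rows, the 41 miR-548 rows in orange and other rows past the adjusted threshold circled. No miR-548 row passed it, and the orange points beyond 4 log2 units from 0 have mean levels below 1 CPM and at most 1 count in 1 of the groups, so that their fitted values are no measure of size.

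Separation of groups was also counted without a model, on the TMM-scaled levels only. The members it singles out beyond those above were chosen after their values were seen. Between 5 h and 0 h, 2 of 41 rows did not overlap (4.88%, against 10.8% of all rows): miR-548ai, lower (3.99% of all rows were), and miR-548t-5p, higher (6.85%). Between 12 h and 0 h there were 5 (12.2%, against 12.1%), all higher, where 7.13% of all rows were higher and 4.99% lower: miR-548q, miR-548aq-3p, miR-548j-5p, miR-548w and miR-548e-5p. Between 12 h and 5 h there were 3 (7.32%, against 12.8%), with miR-548j-5p and miR-548l higher (4.99% of all rows were) and miR-548aw lower (7.85%). The totals were near or below the background.

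Among them miR-548j-5p had the smallest error, with a log2 change of 0.52 ± 0.35 (SE, n = 3) at 12 h against 0 h (edgeR adjusted p = 0.848). For miR-548l the log2 change from 5 h to 12 h was 0.64 ± 0.35 (edgeR adjusted p = 0.753). miR-548w read 2.51, 2.68 and 0 CPM at 0 h, 1.96, 3.18 and 2.93 at 5 h, and 3.88, 2.95 and 11.8 at 12 h. Its 12 h change of 1.80 ± 1.03 (edgeR adjusted p = 0.787) rested largely on the same 2 shallow libraries and was 0.39 without them.

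Summed over all names, the family came to 169.9, 188.1 and 185.2 CPM at 0 h, 197.3, 201.6 and 172.8 at 5 h, and 208.1, 188.9 and 211.2 at 12 h. Every 12 h library exceeded every 0 h library, the lowest of the former by under 1 CPM, and 5 h overlapped both. That separation depends on the TMM scaling. With RLE factors, another scaling, 12 h replicate 2 falls just below 0 h replicate 3. Group means were 181.1 ± 9.78, 190.6 ± 15.5 and 202.7 ± 12.1 CPM (SD, n = 3). The sum over members is given as values with their spread and was not tested. As a share of all counts, with each name taken once, the family made up 0.0277%, 0.0301% and 0.0318% at the 3 times. In these sums a set of names with shared counts is added more than once.

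By the arm in the name, 5p members summed to 99.6 ± 16.3, 117.3 ± 15.4 and 117.2 ± 10.4 CPM, and 3p members to 19.1 ± 7.62, 18.8 ± 4.75 and 17.3 ± 5.07 CPM (SD, n = 3). Names with no suffix summed to 62.4 ± 6.68, 54.6 ± 5.31 and 68.2 ± 12.1 CPM. Of counts with a named arm, the 3p share was 14.2%, 10.7% and 24.0% at 0 h, 9.50%, 16.6% and 15.7% at 5 h, and 11.7%, 9.60% and 17.5% at 12 h. The highest share in both the 0 h and the 12 h group was in its shallowest library, whose exact binomial 95% intervals were 21.0% to 27.2% and 14.9% to 20.2%. Group means of 16.3% ± 6.89, 13.9% ± 3.87 and 12.9% ± 4.07 (SD, n = 3) differed by less than the spread between replicates. With each set of shared counts taken once, by its name with the highest total, they were 9.47%, 11.1% and 8.42%. Under that choice the order of 0 h and 5 h turned. It kept miR-548aa, which has no arm suffix, in place of miR-548t-3p, whose counts so left the 3p sum. The share with miR-548t-3p kept instead was not computed.

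**Figure D4:**
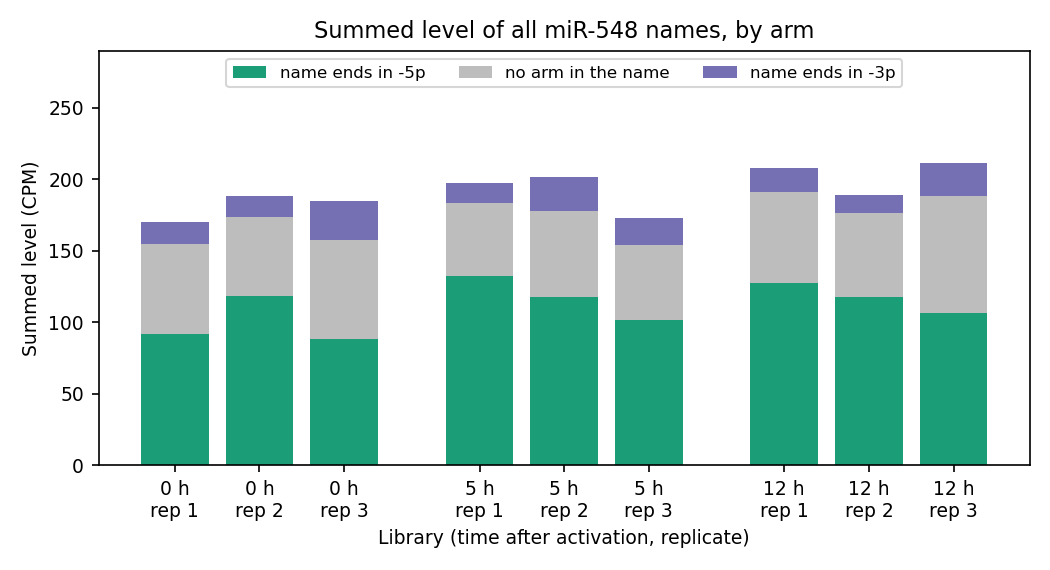
Summed miR-548 level in CPM for each library by time point, split by the arm in the name. Totals ran from 169.9 to 211.2 CPM, and the 5p names made up the largest portion in every library.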

How the data were processed

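The authors deposited raw counts per precursor and mature microRNA for 9 libraries (RNA from a Direct-zol kit, RealSeq library kits, per the labels' protocols). The submitters' processing notes name GRCh38.p13 and DESeq2. Not given in the sources used here: the aligner, the counter and the handling of reads that match several loci. The members and lists were chosen with earlier results of these data known. Counts were scaled to CPM with TMM factors and tested with edgeR 4.0.16 (quasi-likelihood, R 4.3.3) over all 9 libraries in 1 fit, after filterByExpr (minimum count 10, minimum total 15), with Benjamini-Hochberg adjustment over 701 rows and a threshold of 0.05. The p-values measure the spread between the biological replicates. Scripts were tested on simulated data. Alternatives were DESeq2 1.42.0, limma-voom (limma 3.58.1), other scalings, filters and ways to join precursor rows, a replicate block and leaving out libraries. The text names the 12 most abundant members, every name above 0 in all libraries, rows with an unadjusted p under 0.05, precursors with at least 10 counts on both arms, and other names with counts and a member's seed. Replicates of a group differed beyond counting noise, so none were merged. Host genes came from GENCODE 29 and sequences from RefSeq.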

Additional observations from a re-analysis of the deposited data

How the results depend on the processing

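The number of called miR-548 rows was 0 in each of the 3 pairwise comparisons under all 19 alternatives and in the joint test under all 18, with a lowest adjusted p of 0.258 for any member (DESeq2, 12 h against 0 h). All 243 recomputed values of the 13 named log2 changes kept their sign and stayed short of the threshold. They ranged from 1.21 to 2.91 for miR-548q at 12 h, from -3.23 to -1.64 for miR-548ai at 5 h and from 0.39 to 2.21 for miR-548w at 12 h. The median log2 change of the tested rows ranged from 0.09 to 0.34 at 5 h, from 0.04 to 0.21 at 12 h, and between 12 h and 5 h it changed sign (-0.08 to 0.24). The level of the family depended on how names were joined. At 0 h, 5 h and 12 h it was 205.3, 215.2 and 226.4 CPM with all precursor rows added, 164.9, 174.1 and 187.3 CPM without the most abundant member, and 155.9, 166.9 and 178.8 CPM with each set of shared counts taken once, an alternative chosen after seeing the data, as was leaving out the 2 shallowest libraries. Names above 0 in every library of a group numbered 23, 29 and 29. With each shared set once the 3p share was 9.47%, 11.1% and 8.42% at 0 h, 5 h and 12 h, which turned the order of 0 h and 5 h. That alternative kept miR-548aa, a name with no arm suffix, and dropped miR-548t-3p from the 3p counts. Leaving out 1 library at a time gave 177.6 to 186.7, 185.1 to 199.5 and 198.5 to 209.7 CPM for the level, 40 to 44, 46 to 47 and 44 to 48 detected names, 12.5% to 19.1%, 12.6% to 16.2% and 10.7% to 14.6% for the 3p share, and 0 called rows throughout. Deviations of same-numbered libraries correlated at -0.03 to 0.06, those of different-numbered libraries at -0.11 to 0.09, and 5 of 9 libraries were closest to their own number. These values do not settle whether equal numbers share a culture or day, which the labels do not give. With the replicate block, edgeR again called 0 member rows. Their lowest edgeR adjusted p values were 0.619, 0.853 and 0.878 in the pairwise comparisons and 0.927 in the joint test. In the same order, 13, 11, 11 and 21 of the 701 rows were called, against 11, 10, 4 and 12 without the block. Depth limits members under 0.471 CPM, which the shallowest library could not separate from 0.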
